A study of Mus musculus with 12 samples.

Results

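Brain tissue of 4 injured mice was compared with brain tissue of 4 uninjured mice, by RNA sequencing at day 20 after injury. These are 8 of the 12 libraries of the series, chosen by their labels as the injured mice without antibody and the uninjured mice. The other 4 libraries, from injured mice given αLFA1/VLA4 antibodies, do not enter the tests. Both groups were male B6 mice aged 13 weeks, and each library came from 1 mouse that the labels call a biological replicate. The mice were perfused with saline, and a cube of tissue with edges of 3 mm was frozen. Per library, 500 ng of total RNA entered a stranded kit. The title of the series calls the injury cerebrovascular and asks about myeloid cells in damage and repair. How the injury was made, and where the cube was cut in the uninjured mice, is not given in the sources used here.

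Microglia are the resident macrophages of the brain. After damage they lower genes of their resting state and raise a set that handles lipids, lysosomes and debris, often called the disease-associated state. Border macrophages and blood monocytes share part of that set. Astrocytes near damaged tissue raise filament proteins and secreted inhibitors, fibroblasts and vessel cells lay down collagen, and both glia and leukocytes can raise complement and the MHC molecules that show peptides to T cells.

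Values are exon reads in CPM, the read count divided by the effective library size and set on the usual common scale. Levels of single libraries are in the order of their replicate numbers, and means are given ± SD (n = 4). A gene was called at an adjusted p below 0.05 in edgeR's quasi-likelihood test, two-sided. A stricter call, "past 1.2-fold", tests whether the change exceeds a fold of 1.2. Of 14512 genes tested, 2251 were called higher (15.5%) and 2511 lower (17.3%) in injured mice. Most of these changes were small, with a median of 1.29-fold among called genes. Past 1.2-fold there were 190 higher genes (1.31%) and 78 lower genes (0.537%), of which 261 of 268 were also called in the same direction after removing each library's trend with GC content and length, below called the GC correction. Each of the 268 was still called when any 1 library was left out. The weaker calls were less stable. With the GC correction, 1138 genes were higher (7.84%) and 1659 lower (11.4%), and 1619 of the 4762 called genes kept call and direction. Scaling to library size alone made 3982 higher and 1457 lower, or 73.2% higher in place of 47.3%, and moved the median over all tested genes from 0.01 to 0.10 in log2 fold change. Without uninjured replicate 4 or injured replicate 2, 3 or 4, both counts fell by over 1.5 times, to as few as 1220 higher and 1373 lower. Gene groups are therefore described by both kinds of call, and group counts that moved by over 1.5 times when 1 library was left out or with the GC correction are given with other values they took. Where 0 is printed below for the genes of a group called in a direction, edgeR's unadjusted p below 0.05, DESeq2 and limma voom gave 0 as well, except for 1 thalamic gene (lower by the unadjusted p and by DESeq2) and 1 cholesterol gene (higher by the unadjusted p). In both groups 1 such gene was also called without injured replicate 1, and in the thalamic group without uninjured replicate 3.

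**Figure D1:**
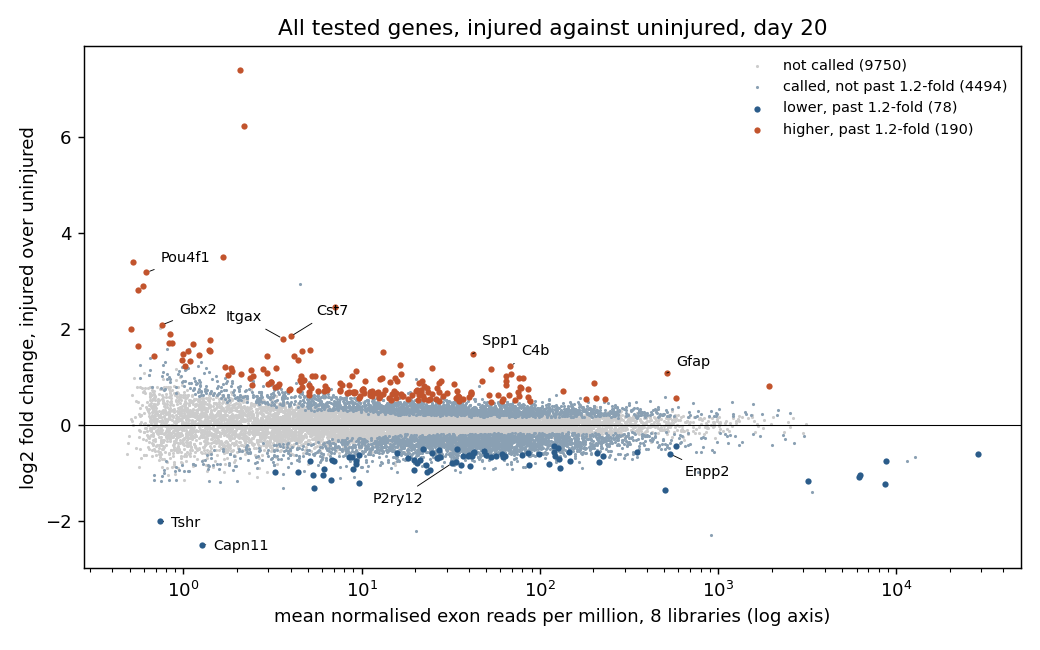
Each point is 1 of 14512 tested genes, with its mean normalised CPM of exon reads over 8 libraries on a log axis against its log2 fold change, injured over uninjured. Past 1.2-fold, 190 genes lie above and 78 below zero, and the named points are genes described in the text. The 2 highest points are Fam205a2 and Fam205a3, whose reads are all shared with near-identical copies.

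The libraries held 15159988 to 15781229 exon reads in uninjured and 15507462 to 16121577 in injured mice. Along the first principal component, with 53.1% of the variance, the groups were separate, with uninjured libraries between -36.1 and -6.47 and injured libraries between 2.89 and 30.1. As a check of the tissue, the neuronal gene Snap25, the myelin gene Mbp and the astrocyte gene Gfap were abundant in every library, and markers of skeletal muscle were not called. Some genes that mark brain regions also differed. The summed level of 15 thalamic markers was 439 to 529.6 CPM in uninjured and 521 to 581 CPM in injured mice. For 18 striatal markers it was 2278 to 2346 and 1846 to 1906 CPM, and for 16 choroid plexus markers 1717 to 1975 and 1249.7 to 1522 CPM. The sums of 9 hippocampal markers overlapped between groups, at 230 to 278 and 235 to 260 CPM. Those of 15 hypothalamic markers also overlapped, at 13.3 to 21.3 and 18.3 to 19.5 CPM. So did those of 9 habenular markers, at 19.2 to 21.3 and 18.2 to 21.8 CPM, though 4 of these genes were called higher and 1 lower. Mitochondrial genome reads were 10.3 to 12.01% of exon reads in uninjured and 4.75 to 7.99% in injured mice. An effect of injury and different proportions of brain regions in the cubes cannot be told apart here. These shifts ran alongside every gene group below, and their part in those differences was not tested. Nor can more cells of a type and more RNA per cell be told apart in bulk tissue.

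**Figure D2:**
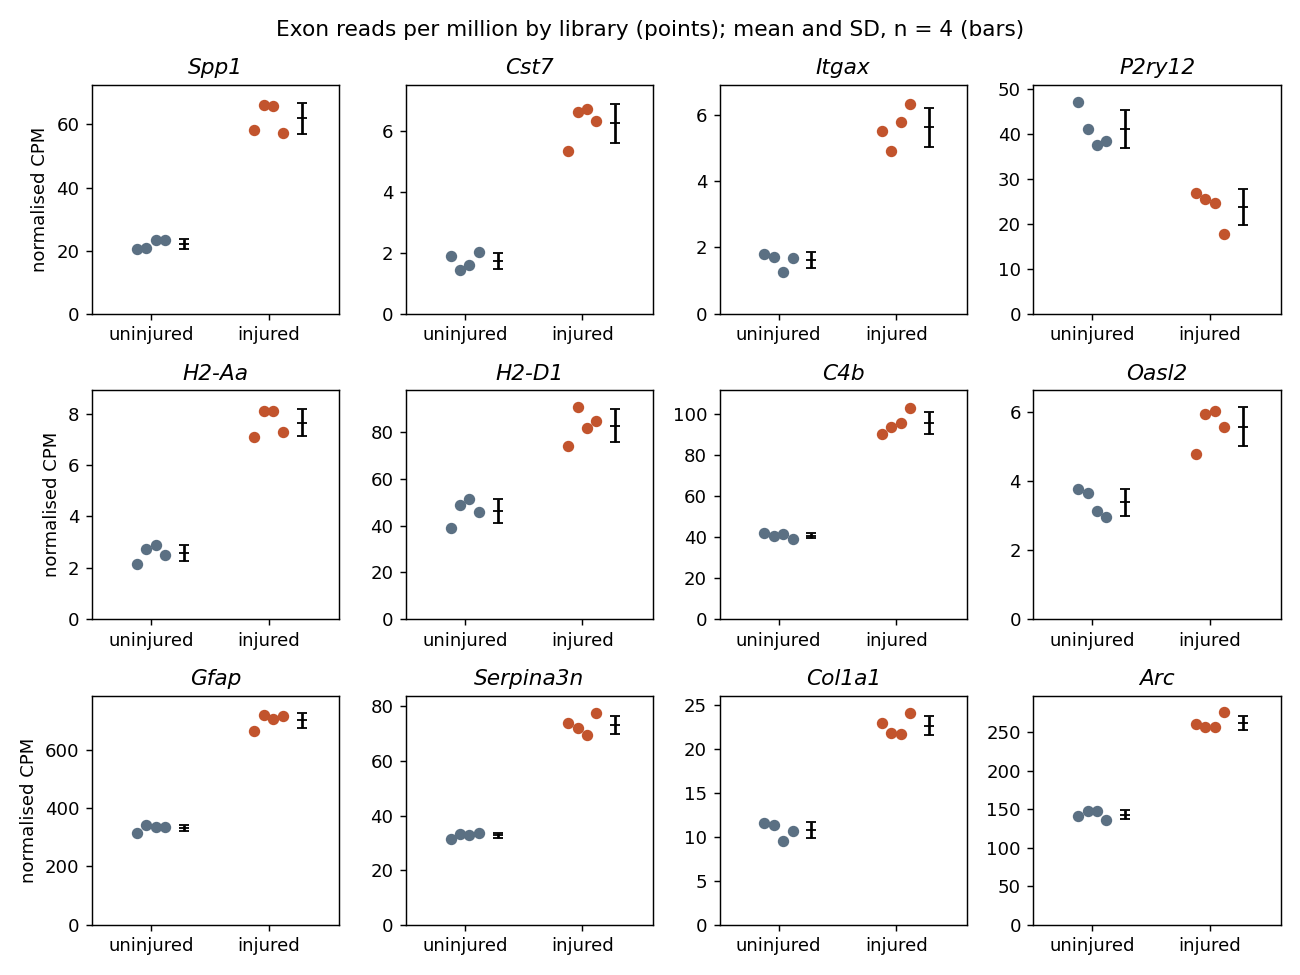
Normalised CPM of exon reads (linear axes from 0) of 12 genes in 4 uninjured and 4 injured libraries, 1 point per library, with the mean and SD (n = 4) beside them. In each panel the 2 groups do not overlap. P2ry12 is lower and the other 11 genes are higher in injured mice. In the resting-state list of P2ry12, 4 of 13 genes were called higher and 2 lower.

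Genes of the disease-associated microglia state were higher in injured mice, and those of the resting state were not lower as a set. Of 13 resting-state genes 4 were higher and 2 lower, with the purine receptor P2ry12 among the lower. Of 23 listed genes of the disease-associated state, all tested, 18 were called higher and 1 lower, 11 of them higher past 1.2-fold. Their median log2 fold change was 0.62 beside 0.01 over all genes. In 19 of the 23 the groups did not overlap, as in 30.5% of all genes tested. Spp1 encodes osteopontin, a secreted matrix and adhesion protein. Its level was 20.6, 20.95, 23.5 and 23.5 CPM in the uninjured and 58.3, 66.2, 65.96 and 57.1 CPM in the injured libraries (log2 fold change 1.48, SE 0.08, edgeR adjusted p = 1.62e-06). The groups did not overlap, and the lowest injured library was well above the highest uninjured one. Spp1 overlaps another annotated gene, and because strand use in counting is not stated, part of its reads cannot be assigned with certainty. Cst7, an inhibitor of cathepsins, was at 1.88, 1.44, 1.605 and 2.03 CPM in the uninjured and 5.34, 6.63, 6.74 and 6.33 CPM in the injured libraries (log2 fold change 1.85, SE 0.15, edgeR adjusted p = 3.58e-05). Itgax, the integrin CD11c, was at 1.82, 1.702, 1.27 and 1.69 CPM in the uninjured and 5.53, 4.91, 5.78 and 6.33 CPM in the injured libraries (log2 fold change 1.796, SE 0.15, edgeR adjusted p = 5.31e-05). In both genes every injured library was above every uninjured one.

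The lipid and phagocytosis genes of this set moved less. Apoe, which carries cholesterol between cells, was at 1137, 1497, 1543 and 1442 CPM in the uninjured and 2247, 2630.2, 2482 and 2553 CPM in the injured libraries (log2 fold change 0.82, SE 0.09, edgeR adjusted p = 5.32e-04). Trem2, a lipid sensing receptor, rose from 15.1 ± 1.76 to 28.5 ± 1.49 CPM and its signalling partner Tyrobp from 17.1 ± 2.01 to 29.2 ± 3.41 CPM. Gpnmb, a lysosomal membrane glycoprotein, rose from 19.3 ± 0.38002 to 36.7 ± 2.098 CPM (log2 fold change 0.92, SE 0.07, edgeR adjusted p = 2.50e-05), and Clec7a, a receptor for fungal glucans, from 3.12 ± 0.575 to 5.95 ± 1.11 CPM. Lpl, lipoprotein lipase, was the member that fell, from 37.8 ± 1.45 to 28.005 ± 1.79 CPM (log2 fold change -0.43, SE 0.07, edgeR adjusted p = 0.00309). The growth factor Igf1 of the same list did not pass, at a log2 fold change of -0.24, but was called higher with the GC correction (0.32, edgeR adjusted p = 0.0205).

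P2ry12, the purine receptor by which resting microglia sense ATP, was at 46.9, 41.1, 37.6 and 38.4 CPM in the uninjured and 26.8, 25.5, 24.7 and 17.8 CPM in the injured libraries (log2 fold change -0.79, SE 0.12, edgeR adjusted p = 0.00252). Every injured library was below every uninjured one, and its log2 fold change was -0.46 with the GC correction. P2ry12 also overlaps another annotated gene. The rest of the resting-state list did not share that fall. Of 13 members 2 were lower and 4 higher, and 1 passed 1.2-fold. Gpr34 was the other lower member (log2 fold change -0.50, SE 0.11, edgeR adjusted p = 0.0105), and its call was lost with the GC correction (log2 fold change -0.12, edgeR adjusted p = 0.282). Fcrls rose from 34.3 ± 2.59 to 43.6 ± 4.35 CPM, while Cx3cr1, the fractalkine receptor, did not pass, at 0.13. The 4 higher members were 2 without uninjured replicate 1, injured replicate 2 or injured replicate 3, and 1 without uninjured replicate 4. Summed over the list, levels were 534 to 556 CPM in uninjured and 567 to 601 CPM in injured mice.

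Among 16 markers of monocytes and border macrophages, 9 passed the count filter and 5 were called higher (3 without uninjured replicate 2 or by DESeq2). Lyz2, lysozyme of myeloid cells, was at 39.01, 44.7, 46.5 and 41.7 CPM in the uninjured and 78.5, 98.6, 87.7 and 83.1 CPM in the injured libraries (log2 fold change 1.02, SE 0.08, edgeR adjusted p = 5.31e-05), and it alone passed 1.2-fold. Ms4a7, a border macrophage marker, rose from 0.717 ± 0.395 to 1.79 ± 0.372 CPM. S100a4 rose from 1.702 ± 0.289 to 3.23 ± 0.591 CPM, but only 49.2% of its reads were unique and it overlaps another gene. The classical monocyte markers stayed at the floor of detection: Ccr2 had 30 reads over the 4 uninjured and 35 over the 4 injured libraries, and Ly6c2 had 1 and 8. Cd5l and Cd52, chosen after their values were seen, were higher as well, Cd5l from 0.534 ± 0.0565 to 1.58 ± 0.148 CPM and Cd52, a surface glycoprotein of leukocytes that overlaps another gene, from 2.02 ± 0.337 to 4.59 ± 0.822 CPM.

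Most markers of neutrophils and lymphocytes had too few reads to be tested. Of 13 neutrophil genes 2 passed the filter. Csf3r, the G-CSF receptor, which microglia also express, rose from 6.91 ± 0.799 to 11.2 ± 0.788 CPM (log2 fold change 0.70, SE 0.10, edgeR adjusted p = 0.00242). Ly6g had 0 reads in all 8 libraries, and S100a8 and S100a9 had 22 and 28 reads over the uninjured and 32 and 40 over the injured libraries. Of 18 T and NK cell genes 4 were tested. Cd3e had 3 and 6 reads and Cd8a 2 and 6 over the groups, too few to test. Cd4 fell from 16.5 ± 0.608 to 12.1 ± 0.974 CPM (log2 fold change -0.45, SE 0.08, edgeR adjusted p = 0.00489). Which cells its reads came from was not tested, so this is no measure of T cells. Of 9 genes for B and plasma cells 1 was tested and it was not called.

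MHC class II genes, which load peptides for T helper cells, had the largest median change of the immune lists. Of 11 listed genes 7 passed the count filter, 6 were higher and 5 passed 1.2-fold, with a median log2 fold change of 1.36. H2-Aa, the alpha chain of I-A, was at 2.15, 2.75, 2.88 and 2.499 CPM in the uninjured and 7.104, 8.103, 8.11 and 7.28 CPM in the injured libraries (log2 fold change 1.57, SE 0.12, edgeR adjusted p = 3.48e-05). Cd74, the invariant chain that guides class II molecules to endosomes, was at 7.53, 6.68, 6.22 and 6.55 CPM in the uninjured and 17.3, 21.9, 19.3 and 19.6 CPM in the injured libraries (log2 fold change 1.53, SE 0.10, edgeR adjusted p = 7.59e-06). H2-Ab1 rose from 2.35 ± 0.317 to 6.85 ± 0.956 CPM and H2-Eb1 from 2.47 ± 0.357 to 6.35 ± 1.19 CPM. In these 4 genes every injured library was above every uninjured one. H2-DMb1, which helps exchange peptides, rose from 1.62 ± 0.0834 to 3.28 ± 0.892 CPM. H2-DMa was called as well, but its groups overlapped (11.9 ± 1.72 to 14.9 ± 1.103 CPM) and the call was lost without any 1 of 6 libraries, with edgeR adjusted p = 0.106 without uninjured replicate 2. H2-Ob did not pass (0.79), and Ciita, the master regulator of class II transcription, had 12 reads in uninjured and 20 in injured libraries and was not tested.

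An element called the Y box, bound by the factor NF-Y, is known from promoters of class II genes. It is shown for H2-Aa and H2-Eb1, which were higher and hold a match. Whether it had a part in any difference was not tested. The 150 bases before the start of H2-Aa (chr17:34287824-34287973, minus strand) and of H2-Eb1 (chr17:34305717-34305866, plus strand) are printed 5′ to 3′ from RefSeq on GRCm38.p6. Capitals mark the letters CTGATTGG, searched on both strands.
H2-Aa: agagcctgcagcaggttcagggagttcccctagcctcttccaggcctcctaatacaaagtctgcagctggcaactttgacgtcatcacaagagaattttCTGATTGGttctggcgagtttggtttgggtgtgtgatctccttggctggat
H2-Eb1: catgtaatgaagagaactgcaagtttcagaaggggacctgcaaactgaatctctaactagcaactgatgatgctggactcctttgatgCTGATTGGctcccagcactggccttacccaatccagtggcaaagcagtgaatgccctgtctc
The match begins 51 bases before the start of H2-Aa and 62 bases before that of H2-Eb1. Shares were counted in a longer window before the start, which includes the printed bases. There the letters occurred in 4 of 8 class II genes that had a RefSeq entry (50%), in 6 of 15 class I and peptide loading genes (40%), and in 4.43% of all 27025 genes with an entry. A match is a description of the letters in a window and no measure of binding.

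MHC class I genes, which show peptides from inside the cell, were higher in 15 of 17 members, 7 of them past 1.2-fold, with a median log2 fold change of 0.69. H2-D1, a class I heavy chain, was at 39.1, 49.04, 51.4 and 45.8 CPM in the uninjured and 74.1, 90.7, 81.8 and 84.95 CPM in the injured libraries (log2 fold change 0.84, SE 0.09, edgeR adjusted p = 3.87e-04). H2-K1 rose from 31.5 ± 2.55 to 51.04 ± 4.06 CPM and H2-Q4 from 4.82 ± 0.477 to 8.02 ± 0.831 CPM. Class I genes are near-identical in part, and H2-Q6, which rose from 1.17 ± 0.165 to 2.397 ± 0.179 CPM, had 89.04% unique reads. The transporters Tap1 and Tap2, which bring peptides to the class I groove, rose from 2.94 ± 0.280004 to 4.98 ± 0.7397 CPM and from 9.47 ± 1.51 to 15.3 ± 1.26 CPM. Psmb8, a subunit of the immunoproteasome that cuts those peptides, rose from 3.47 ± 0.989 to 7.07 ± 0.813 CPM. B2m, the light chain, had the smallest called change (0.18), and it lost its call without any 1 of 6 libraries (edgeR adjusted p = 0.08501 without injured replicate 2).

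Interferon-stimulated genes, the antiviral set induced by type I interferon, rose in part. Of 32 listed genes 28 were tested, 9 were higher and 1 lower, and 2 passed 1.2-fold, with a median of 0.27. Oasl2 was at 3.77, 3.67, 3.14 and 2.97 CPM in the uninjured and 4.78, 5.95, 6.02 and 5.56 CPM in the injured libraries (log2 fold change 0.72, SE 0.13, edgeR adjusted p = 0.00473). Bst2, tetherin, was at 3.63, 3.601, 4.68 and 3.44 CPM in the uninjured and 5.47, 6.998, 7.097 and 6.51 CPM in the injured libraries (log2 fold change 0.76, SE 0.13, edgeR adjusted p = 0.00445). Isg15, a ubiquitin-like protein, rose from 1.34 ± 0.129 to 2.35 ± 0.367 CPM and Irf7, the factor that amplifies interferon transcription, from 2.04 ± 0.283 to 3.29 ± 0.237 CPM. The transcription factor Stat2 and the RNA sensor Ddx58 did not pass, at 0.15 and 0.27. Gbp7 was the lower member (-0.49), with overlapping groups, and lost its call without any 1 of 6 libraries (edgeR adjusted p = 0.129 without uninjured replicate 1). Scaling to library size alone called 17 of the 28 higher.

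Many of these promoters carry the interferon-stimulated response element, to which factors activated by interferon bind. The windows, from RefSeq on GRCm38.p6, are the 150 bases before the start of Isg15 (chr4:156200819-156200968, minus strand) and of Bst2 (chr8:71537473-71537622, minus strand), 5′ to 3′, and show 2 genes that rose. Capitals mark 2 copies of the letters GAAA with any 2 bases between them, searched on both strands, with overlapping matches joined.
Isg15: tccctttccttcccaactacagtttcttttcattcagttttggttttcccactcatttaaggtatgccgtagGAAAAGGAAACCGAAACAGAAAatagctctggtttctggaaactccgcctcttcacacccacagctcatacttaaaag
Bst2: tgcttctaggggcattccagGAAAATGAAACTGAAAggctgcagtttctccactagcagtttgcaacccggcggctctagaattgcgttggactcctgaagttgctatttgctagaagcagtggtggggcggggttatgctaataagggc
Isg15 holds 3 overlapping matches, the first beginning 78 bases before the start, and Bst2 holds 2, the first at 130 bases. In the longer window used for shares, the letters occurred in 15 of 23 interferon-stimulated genes with an entry (65.2%) and in 3 of 15 class I and peptide loading genes (20%). They occurred in 0 of 8 class II genes and in 3.46% of all genes with an entry.

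Complement, which tags debris and synapses for removal, was higher in 9 of 17 tested genes, 6 of them past 1.2-fold, with a median of 0.56. C4b, cleaved in the classical pathway, was at 42.2, 40.5, 41.5 and 38.9 CPM in the uninjured and 90.5, 93.6, 95.8 and 103 CPM in the injured libraries (log2 fold change 1.23, SE 0.06, edgeR adjusted p = 1.62e-06). C3, the hub of all complement pathways, was at 10.9, 10.1, 11.3 and 8.98 CPM in the uninjured and 18.6, 20.1, 20.3 and 22.2 CPM in the injured libraries (log2 fold change 0.98, SE 0.09, edgeR adjusted p = 1.43e-04). The 3 chains of C1q, which start the classical pathway, rose together: C1qa from 51.5 ± 8.23 to 101 ± 12.7 CPM, C1qb from 57.7 ± 6.42 to 98.4 ± 10.1 CPM and C1qc from 52.8 ± 5.51 to 80.9 ± 4.75 CPM. Serping1, the inhibitor of C1, rose from 8.53 ± 0.928 to 13.7 ± 1.52 CPM. No listed regulator on the cell surface passed, with Cd55 at -0.47 and Cd59a at -0.35, and neither did the receptor C3ar1 (0.26). Cd46, a surface regulator outside the list and chosen after its values were seen, was called lower (log2 fold change -0.45). Itgb2, the beta chain of complement receptor 3, rose from 6.66 ± 0.158 to 9.79 ± 1.72 CPM.

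Among 5 tested Fc gamma receptor genes, which bind antibody, 4 were higher. The inhibitory receptor Fcgr2b rose from 4.83 ± 0.954 to 7.703 ± 0.578 CPM, Fcgr3 from 14.4 ± 0.773 to 20.04 ± 1.92 CPM and the shared gamma chain Fcer1g from 10.2 ± 0.918 to 14.3 ± 1.13 CPM. Of 11 tested Toll-like receptor genes, Tlr2, which senses bacterial lipoproteins, was at 1.88, 2.095, 1.34 and 2.23 CPM in the uninjured and 3.96, 3.99, 3.82 and 4.32 CPM in the injured libraries (log2 fold change 1.09, SE 0.16, edgeR adjusted p = 0.00216). The calls of Cd14 (0.60) and Tlr3 (-0.36) had overlapping groups and were each lost without any 1 of 6 libraries, with edgeR adjusted p = 0.118 for Cd14 without injured replicate 2 and 0.105 for Tlr3 without injured replicate 4. Unc93b1, which carries Toll-like receptors to endosomes and was chosen after its values were seen, rose from 16.5 ± 1.05 to 26.5 ± 1.696 CPM.

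Lysosomal genes shifted upward by small steps, 18 of 28 higher and 2 lower with a median of 0.24, and 3 passed 1.2-fold. Ctss, a cathepsin that trims the class II invariant chain, was at 87.8, 97.04, 101 and 87.7 CPM in the uninjured and 117, 143, 151 and 123 CPM in the injured libraries (log2 fold change 0.52, SE 0.09, edgeR adjusted p = 0.00405). Laptm5, a lysosomal protein of leukocytes, rose from 44.6 ± 1.46 to 62.5 ± 3.64 CPM and Ctsz, which overlaps another gene, from 46.2 ± 5.37 to 70.8 ± 7.02 CPM. Ctsd rose from 469 ± 39.5 to 692 ± 45.6 CPM, with only 19.1% of its reads unique. Neither of the 2 lower members was called with the GC correction or without uninjured replicate 2 or 4 or injured replicate 3 or 4, and 1 was called without uninjured replicate 1 or injured replicate 2. Of 16 tested scavenger and efferocytosis receptors 3 were higher and 2 lower, beside 15.5% and 17.3% of all genes. The lower count was 1 with the GC correction or without uninjured replicate 1, 2 or 4 or injured replicate 2, 3 or 4. The alpha chain Itgav fell from 77.6 ± 9.22 to 49.8 ± 7.21 CPM (log2 fold change -0.64, SE 0.11, edgeR adjusted p = 0.00381) and the beta chain Itgb5, its partner, rose from 50.6 ± 1.54 to 73.98 ± 4.896 CPM (log2 fold change 0.55, SE 0.07, edgeR adjusted p = 7.21e-04). Mertk, which recognises dying cells, was at -0.10 and not called.

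Few chemokines and cytokines could be measured. Of 20 listed genes 9 were tested and 2 were higher: Cxcl16, which recruits lymphocytes and overlaps another gene, from 1.74 ± 0.219 to 3.89 ± 0.947 CPM (log2 fold change 1.16, SE 0.20, edgeR adjusted p = 0.00433), and Ccl6 from 2.47 ± 0.167 to 3.93 ± 0.442 CPM. Il1b had 25 and 35 reads over the groups, Tnf 3 and 5, Il6 3 and 1, and Ccl2 14 and 11, too few to test. Of 11 tested genes for myeloid growth factors and regulators 7 were higher, but 1 with the GC correction, 4 without uninjured replicate 1 or injured replicate 3, 3 without uninjured replicate 2 or 4 or injured replicate 2, and 2 without injured replicate 4. Irf8, a factor of the myeloid lineage, held its call in all of these (log2 fold change 0.58, SE 0.10, edgeR adjusted p = 0.00449), with 26.3% of its reads unique, and lost it when unique reads alone were counted. Lag3, an inhibitory receptor chosen after its values were seen, was at 8.004, 10.2, 10.9 and 9.996 CPM in the uninjured and 20.6, 24.4, 22.6 and 24.97 CPM in the injured libraries (log2 fold change 1.24, SE 0.10, edgeR adjusted p = 5.31e-05). Tspo, a mitochondrial membrane protein used to image activated microglia and chosen in the same way, rose from 3.59 ± 0.566 to 7.31 ± 0.994 CPM.

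**Figure D3:**
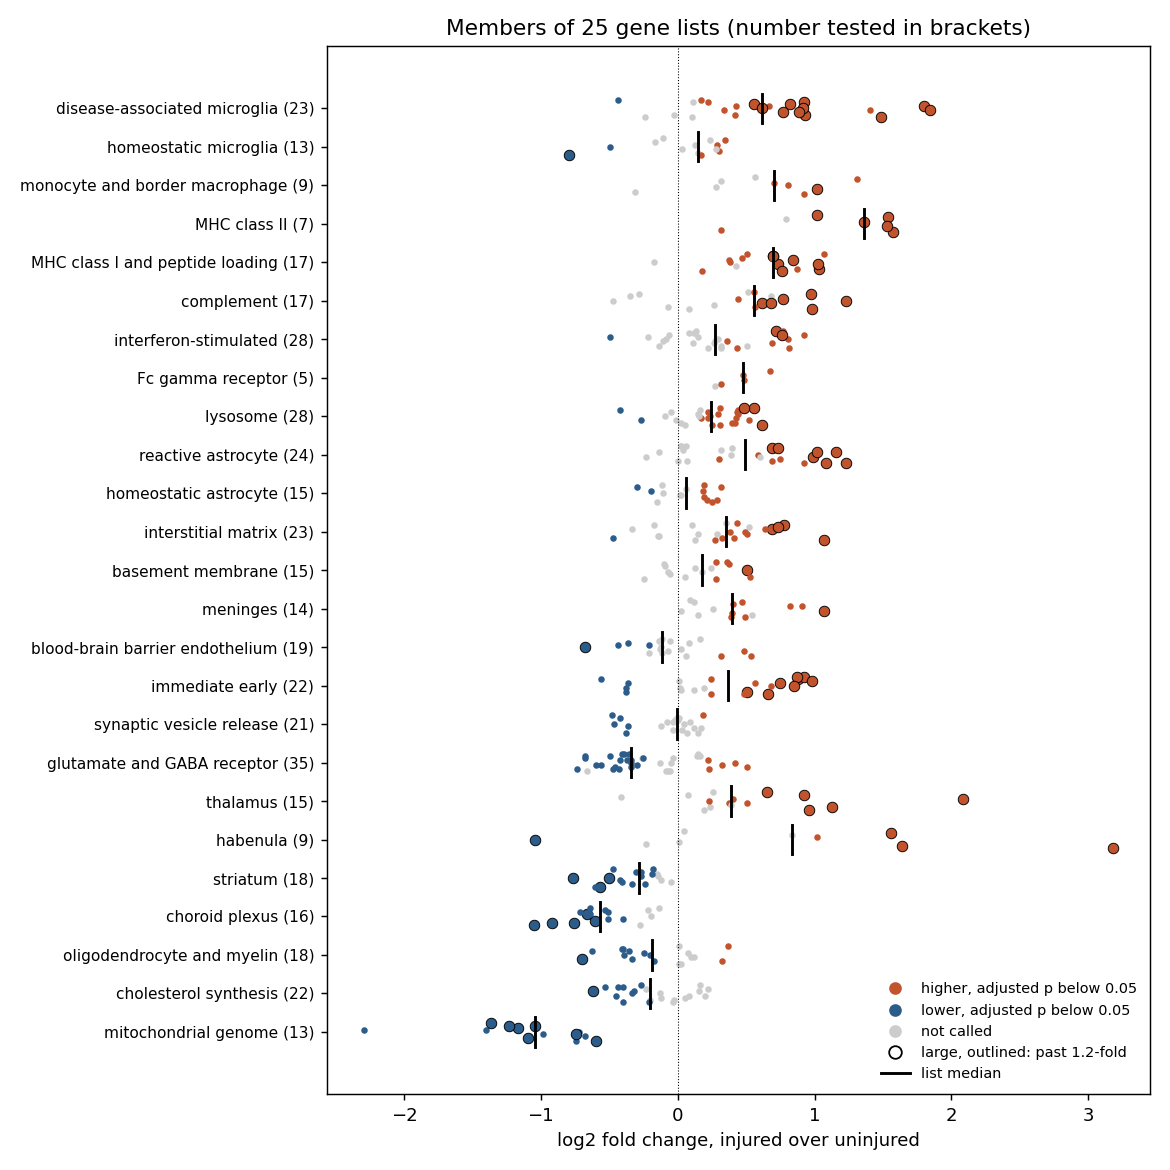
Log2 fold change, injured over uninjured, of each tested member of 25 gene lists, with the number tested in brackets. Colour marks the call, large outlined points passed 1.2-fold, and the black bar is the list median, from -1.04 in the mitochondrial genome to 1.36 in MHC class II.

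Of 24 genes that reactive astrocytes raise 12 were higher and 0 lower, 7 of them past 1.2-fold, with a median of 0.49. Gfap, the astrocyte filament protein, was at 315, 341, 335 and 334 CPM in the uninjured and 665, 721, 705 and 717 CPM in the injured libraries (log2 fold change 1.08, SE 0.05, edgeR adjusted p = 1.62e-06). Serpina3n, a secreted protease inhibitor, was at 31.5, 33.3, 32.96 and 33.4 CPM in the uninjured and 73.9, 72.1, 69.7 and 77.6 CPM in the injured libraries (log2 fold change 1.16, SE 0.06, edgeR adjusted p = 1.62e-06). In both genes the 4 injured libraries lay close together, far above the uninjured ones. Vim, a second filament protein, rose from 57.8 ± 5.92 to 92.97 ± 5.96 CPM, Lcn2, which binds iron siderophores, from 4.06 ± 0.389 to 8.07 ± 0.765 CPM, and Aspg, an asparaginase, from 3.04 ± 0.0961 to 6.16 ± 0.504 CPM. The other 12 listed genes did not pass. Of 15 homeostatic astrocyte genes 7 were higher and 2 lower, none past 1.2-fold, with a median of 0.06. The 7 were 4 without uninjured replicate 1 or 2, 3 without injured replicate 2 or 4, and 2 without uninjured replicate 4 or injured replicate 3. The 2 lower were 1 without uninjured replicate 1 or 2 and 0 without uninjured replicate 4 or injured replicate 2, 3 or 4. With the GC correction 6 were higher and 0 lower. The water channel Aqp4 and the gap junction gene Gja1 did not pass, at -0.15 and -0.11, and were called higher with the GC correction, at 0.19 and 0.13.

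Further secreted genes known from astrocytes were among the smallest p-values outside the lists and were chosen after their values were seen. Agt, angiotensinogen, was at 14.7, 16.04, 15.2 and 14.7 CPM in the uninjured and 32.6, 34.01, 34.5 and 37.7 CPM in the injured libraries (log2 fold change 1.19, SE 0.07, edgeR adjusted p = 5.20e-06). A2m, alpha-2-macroglobulin, was at 10.4, 11.5, 11.2 and 10.9 CPM in the uninjured and 22.004, 19.9, 21.1 and 19.7 CPM in the injured libraries (log2 fold change 0.91, SE 0.08, edgeR adjusted p = 5.31e-05). Both had groups far apart beside the spread within them. Myoc rose from 19.2 ± 1.24 to 30.2 ± 1.74 CPM, and it overlaps another gene.

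Of 21 annexin, S100 and galectin genes 14 were higher and 0 lower, 2 of them past 1.2-fold, with a median of 0.31. The 14 were 8 without uninjured replicate 1 and 9 without uninjured replicate 4 or injured replicate 2, 3 or 4. Lgals3, a galectin of activated myeloid cells, rose from 3.22 ± 0.507 to 5.97 ± 0.705 CPM and Lgals3bp, its binding protein, from 18.1 ± 0.791 to 29.1 ± 3.14 CPM. Anxa2 rose from 13.2 ± 1.44 to 19.4 ± 2.12 CPM.

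Collagens of interstitial matrix were higher in injured tissue. Of 23 matrix genes 12 were higher and 1 lower, 4 past 1.2-fold, with a median of 0.35. Col1a1, a chain of type I collagen, was at 11.6, 11.4, 9.49 and 10.7 CPM in the uninjured and 22.9, 21.8, 21.8 and 24.1 CPM in the injured libraries (log2 fold change 1.07, SE 0.08, edgeR adjusted p = 3.48e-05). Col1a2, the other chain, rose from 19.5 ± 1.51 to 33.4 ± 0.9001 CPM, Col3a1, type III collagen, from 6.53 ± 0.819 to 10.5 ± 0.83002 CPM, and Col6a2, type VI collagen, from 15.4 ± 1.51 to 25.6 ± 1.89 CPM. The wound matrix genes Fn1 (0.12) and Tnc (0.10) did not pass. Fap was the lower member, with overlapping groups, and lost its call without any 1 of 7 libraries (edgeR adjusted p = 0.1096 without uninjured replicate 3). Mmp14, a membrane protease that cuts collagen, rose from 10.1 ± 0.833 to 18.8 ± 1.74 CPM (log2 fold change 0.89, SE 0.09, edgeR adjusted p = 3.18e-04), and Timp3, an inhibitor of such proteases, fell from 118 ± 9.32 to 95.9 ± 3.68 CPM (log2 fold change -0.30, SE 0.07, edgeR adjusted p = 0.00918, not called with all 12 libraries in the model). Both sit in a list of 15 tested proteases and inhibitors in which 4 were higher (2 without uninjured replicate 2 or 3 or injured replicate 3 or 4) and 1 lower (2 without uninjured replicate 2 or 3 or injured replicate 1, or with the GC correction).

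Meningeal markers moved in the same direction as collagen. Of 14 genes 8 were higher and 0 lower, with a median of 0.40, and Col1a1, which is on both lists, alone passed 1.2-fold. Aldh1a2, which makes retinoic acid in meningeal fibroblasts, rose from 6.07 ± 0.4202 to 8.53 ± 0.356 CPM and Ptgds, prostaglandin D synthase, from 611 ± 81.001 to 845 ± 75.4 CPM. The meningeal transporter Slc47a1, chosen after its values were seen, was at 1.35, 1.64, 2.01 and 1.28 CPM in the uninjured and 4.02, 4.24, 4.41 and 4.496 CPM in the injured libraries (log2 fold change 1.45, SE 0.16, edgeR adjusted p = 3.78e-04). Its groups did not overlap. Whether the cubes held unequal amounts of meninges was not tested. In basement membrane genes 6 of 15 were higher (3 without uninjured replicate 2, without injured replicate 3, or with the GC correction). Lamb2, a laminin chain, rose from 28.96 ± 1.42 to 41.2 ± 2.97 CPM (log2 fold change 0.51, SE 0.07, edgeR adjusted p = 0.00197).

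Of 19 tested genes of the blood-brain barrier endothelium 3 were higher (1 with the GC correction) and 4 lower, with a median of -0.11, shares near the 15.5% and 17.3% of all genes. The lower 4 were 2 without uninjured replicate 1, 2 or 4 or injured replicate 2 or 3. Slco1a4, a transporter of organic anions, was at 75.3, 61.6, 60.9 and 65.6 CPM in the uninjured and 43.8, 40.6, 44.8 and 35.5 CPM in the injured libraries (log2 fold change -0.68, SE 0.09, edgeR adjusted p = 0.00148), and it alone passed 1.2-fold. Cldn5, a tight junction protein, rose from 38.7 ± 6.58 to 56.3 ± 7.55 CPM (log2 fold change 0.54, SE 0.13, edgeR adjusted p = 0.0107), a call that was lost with the GC correction (log2 fold change 0.17, edgeR adjusted p = 0.0893). The lipid transporter Mfsd2a did not pass, at -0.11. Of 13 genes known from pericytes and smooth muscle 2 were higher (1 with the GC correction or without uninjured replicate 4 or injured replicate 4) and 2 lower. These shares too were near those of all genes. Among them Rgs5 fell from 147 ± 9.67 to 106 ± 5.37 CPM (log2 fold change -0.47, SE 0.07, edgeR adjusted p = 0.00172), while Pdgfrb, which defines pericytes, was at 0.15 and not called. Of 15 tested angiogenesis genes 2 were higher (1 with the GC correction, 1 to 3 when 1 library was left out). In that list 1 was lower (0 to 3 when 1 library was left out), none passed 1.2-fold, and the median was 0.07. Over all genes 15.5% were higher and 17.3% lower. Its largest rise was in Dll4, a Notch ligand of sprouting vessels, from 2.45 ± 0.2798 to 4.23 ± 0.729 CPM (log2 fold change 0.78, SE 0.16, edgeR adjusted p = 0.00713).

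Of 19 tested genes for iron and heme 5 were higher (3 without uninjured replicate 2 or 4 or injured replicate 3 or 4) and 4 lower, beside 15.5% and 17.3% of all genes. The 4 lower were 1 with the GC correction or without uninjured replicate 4 or injured replicate 2, and 2 without uninjured replicate 1 or 2 or injured replicate 4. Tfrc, the transferrin receptor that takes up iron, was at 161, 138, 127 and 152 CPM in the uninjured and 98.3, 79.7, 82.8 and 66.7 CPM in the injured libraries (log2 fold change -0.82, SE 0.11, edgeR adjusted p = 0.00146). Its groups did not overlap. Heme oxygenase Hmox1 was called higher, but its groups overlapped (4.93 ± 1.07 to 6.87 ± 0.884 CPM) and the call was lost without any 1 of 6 libraries (edgeR adjusted p = 0.105 without injured replicate 4). The ferritin light chain Ftl1, which overlaps another gene, rose from 289 ± 44.96 to 404 ± 45.1 CPM, with 44.02% of its reads unique. None of the 4 hemoglobin genes was called, with Hba-a1 at 0.31 and Hbb-bt at -0.29, and the summed level of 7 red blood cell genes was 35.4 to 48.7 CPM in uninjured and 45.0 to 51.5 CPM in injured mice.

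Immediate early genes, which nerve cells switch on within minutes of activity, changed in both directions, 13 of 22 higher and 4 lower with 8 higher past 1.2-fold. Arc, a regulator of synaptic receptors, was at 141, 147, 148 and 136 CPM in the uninjured and 261, 258, 257 and 276 CPM in the injured libraries (log2 fold change 0.88, SE 0.06, edgeR adjusted p = 7.36e-06). Btg2 was at 19.4, 19.4, 20.6 and 17.8 CPM in the uninjured and 34.9, 34.6, 36.1 and 35.7 CPM in the injured libraries (log2 fold change 0.87, SE 0.07, edgeR adjusted p = 3.48e-05). The spread within groups was small beside the difference for both. Junb rose from 44.7 ± 5.098 to 84.7 ± 6.33 CPM, Nr4a1 from 64.5 ± 3.83 to 108 ± 4.51 CPM, Fos from 23.4 ± 0.389 to 37.03 ± 2.55 CPM and Dusp1 from 23.5 ± 1.90005 to 42.5 ± 2.28 CPM. By contrast, Nr4a2 fell from 41.7 ± 3.19 to 32.2 ± 3.44 CPM (log2 fold change -0.38, SE 0.09, edgeR adjusted p = 0.0109) and Nr4a3 from 29.1 ± 2.38 to 22.4 ± 1.58 CPM (log2 fold change -0.38, SE 0.08, edgeR adjusted p = 0.00862), though both belong to the same family as Nr4a1. Egr1 did not pass, at 0.01, but was called lower with the GC correction (-0.18). Bdnf was lower by this test but had a log2 fold change of 0.01 with the GC correction. The median of the list was 0.37, and 0.08 with the GC correction, where 10 were higher and 3 lower.

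Receptor subunits for glutamate and GABA had lower values in injured mice, and the shift was smaller with the GC correction. Of 35 genes 19 were lower and 5 higher with a median of -0.34, none past 1.2-fold. With the GC correction 9 were lower and 1 higher, and the median was -0.05. Gria2, the AMPA receptor subunit that blocks calcium, went from a log2 fold change of -0.67 to -0.06. The metabotropic receptor Grm5 (-0.73, and -0.39 with the GC correction) and the GABA receptor subunit Gabra4 (-0.68 and -0.43) were called in both. Among 21 genes of synaptic vesicle release 5 were lower and 1 higher (0 to 2 when 1 library was left out), with a median of -0.01, and 10 were lower with the GC correction. Snap25, a fusion protein of synaptic vesicles, was at 3066, 3060.0, 2953 and 3069.6 CPM in the uninjured and 2688, 2323, 2273 and 2079 CPM in the injured libraries (log2 fold change -0.38, SE 0.07, edgeR adjusted p = 0.00659), and at -0.05 with the GC correction. Of 17 markers of cortical excitatory neurons 7 were lower (4 without injured replicate 2 or 4), including Bcl11b from 92.1 ± 8.07 to 66.9 ± 10.6 CPM and Tbr1 from 111 ± 4.65 to 86.9 ± 9.84 CPM.

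Of 15 thalamic markers 9 were higher and 0 lower, 5 of them past 1.2-fold, with a median of 0.39. Prkcd, a kinase of thalamic relay neurons, was at 35.04, 30.8, 30.9 and 34.2 CPM in the uninjured and 60.4, 62.2, 59.8 and 65.9 CPM in the injured libraries (log2 fold change 0.92, SE 0.07, edgeR adjusted p = 2.97e-05). Tcf7l2, a transcription factor of the thalamus, rose from 8.63 ± 0.655 to 16.8 ± 2.46 CPM, Tnnt1 from 5.87 ± 0.881 to 12.8 ± 1.73 CPM and Rgs16 from 11.5 ± 0.558 to 18.01 ± 1.498 CPM. Gbx2 was at 0.202, 0.262, 0.267 and 0.405 CPM in the uninjured and 0.817, 1.35, 1.37 and 1.36 CPM in the injured libraries (log2 fold change 2.08, SE 0.30, edgeR adjusted p = 0.002195). Habenular genes, from the region beside the thalamus, rose in 4 of 9 (2 with a filter of at least 1 CPM in 4 libraries, which tests fewer genes). Pou4f1, a transcription factor, was at 0.0673, 0.131, 0 and 0.2702 CPM in the uninjured and 1.19, 0.921, 1.37 and 1.01 CPM in the injured libraries (log2 fold change 3.18, SE 0.45, edgeR adjusted p = 0.00197), a level of a few reads per uninjured library. Gpr151, a receptor of habenular neurons, rose from 0.702 ± 0.197 to 2.08 ± 0.217 CPM and Chrnb4, a nicotinic receptor subunit, from 0.268 ± 0.0975 to 0.8504 ± 0.0972 CPM. Slc5a7, the choline transporter, fell from 7.16 ± 0.698 to 3.48 ± 1.07 CPM (log2 fold change -1.04, SE 0.19, edgeR adjusted p = 0.00499), and Chat, which makes acetylcholine, was at -0.23 and not called. Other genes at low levels, chosen after their values were seen, were higher as well. Irx2 and Mab21l2 were near absence in uninjured mice, while Shox2 was not. Irx2 was at 0.0673, 0.131, 0.134 and 0.203 CPM in the uninjured and 0.754, 1.17, 1.25 and 0.769 CPM in the injured libraries, Mab21l2, which overlaps another gene, at 0, 0.196, 0.134 and 0 CPM in the uninjured and 0.943, 0.982, 0.895 and 1.01 CPM in the injured libraries, and Shox2, which overlaps another gene, at 2.29, 2.49, 1.74 and 2.57 CPM in the uninjured and 7.04, 6.57, 5.61 and 5.32 CPM in the injured libraries (log2 fold change 1.43, SE 0.15, edgeR adjusted p = 3.67e-04). In all 3 the groups did not overlap.

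Striatal markers were lower in 14 of 18 and higher in 0, 3 of them past 1.2-fold, with a median of -0.29. The 14 were 8 without uninjured replicate 2 or 4 or injured replicate 2 or 3, and 9 without uninjured replicate 3, and scaling to library size alone gave 7. Drd1, the dopamine D1 receptor, was at 52.2, 47.9, 54.03 and 49.6 CPM in the uninjured and 37.03, 34.2, 33.8 and 32.6 CPM in the injured libraries (log2 fold change -0.57, SE 0.07, edgeR adjusted p = 7.59e-04), and Drd2, the D2 receptor, fell from 47.5 ± 2.05 to 38.5 ± 2.32 CPM. With the GC correction 16 were lower and the median was -0.43.

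Choroid plexus genes, from the epithelium that makes cerebrospinal fluid, were lower in 12 of 16 and higher in 0, 5 of them past 1.2-fold, with a median of -0.57. Enpp2, autotaxin, was at 685, 639, 637 and 646 CPM in the uninjured and 435, 416, 447 and 414 CPM in the injured libraries (log2 fold change -0.61, SE 0.05, edgeR adjusted p = 9.75e-05). Whether all Enpp2 reads came from this epithelium was not tested. Kl, klotho, fell from 33.6 ± 2.904 to 21.2 ± 1.71 CPM and the coagulation factor F5 from 11.7 ± 2.07 to 6.202 ± 0.535 CPM. Ttr, the abundant transthyretin of this epithelium, had a log2 fold change of -0.28 and was not called (edgeR adjusted p = 0.0762). In reads outside exons Ttr was called lower (log2 fold change -0.75, edgeR adjusted p = 0.00679). Of 17 motile cilia genes of the neighbouring ependyma 1 was higher and 1 lower, with a median of -0.05. The higher count was 2 without uninjured replicate 3 or injured replicate 1 and 0 without uninjured replicate 4 or with the GC correction, and the lower count was 3 without uninjured replicate 3.

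**Figure D4:**
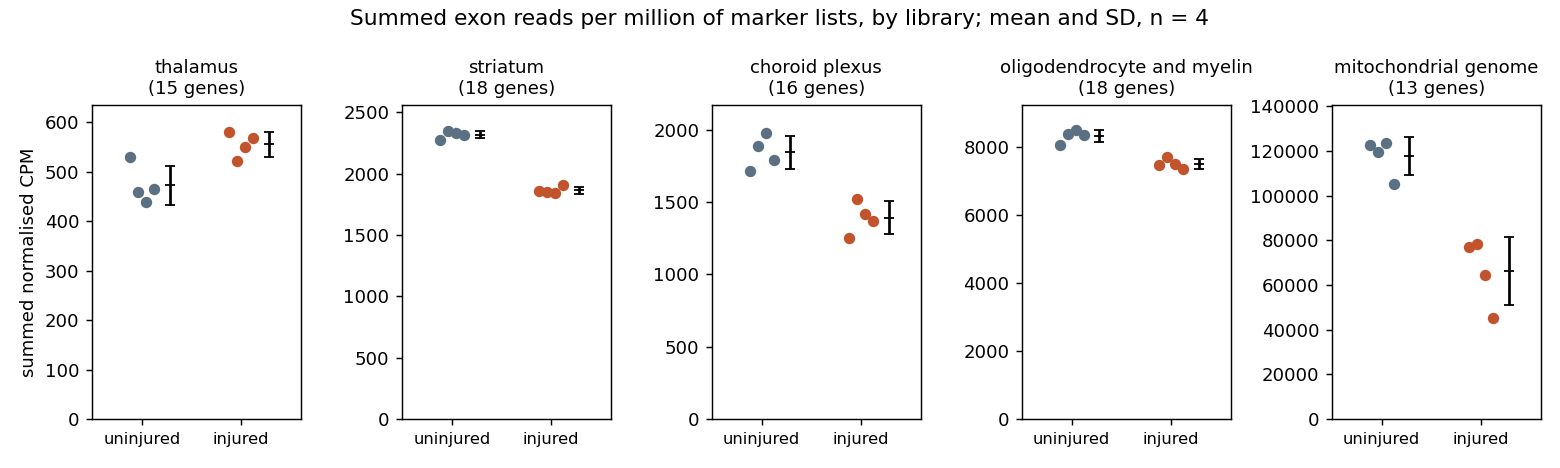
Summed normalised CPM of exon reads (linear axes from 0) of 5 marker lists in 4 uninjured and 4 injured libraries, 1 point per library, with mean and SD (n = 4). Striatal, choroid plexus, myelin and mitochondrial sums do not overlap between groups and are lower in injured mice; the thalamic sum is higher in 3 of 4 injured libraries than in any uninjured library.

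Of 18 genes of oligodendrocytes and myelin 10 were lower (6 without uninjured replicate 4) and 2 higher, with a median of -0.19. Cldn11, a tight junction protein of myelin, was at 167, 172, 161 and 173 CPM in the uninjured and 140.5, 127, 126 and 117 CPM in the injured libraries (log2 fold change -0.40, SE 0.06, edgeR adjusted p = 0.00346). Tspan2, a membrane protein of myelinating cells, fell from 158 ± 12.2 to 97.4 ± 12.3 CPM and alone passed 1.2-fold. It overlaps another gene. The major myelin genes Mbp, Mag and Cnp were at 0.02, 0.12 and 0.01 and not called, though Mag and Cnp were called lower with the GC correction (-0.15 and -0.20). The 2 higher members, Olig1 and Olig2, were not called with the GC correction. In the precursor list 6 of 11 were lower and 1 higher (2 without uninjured replicate 2 or injured replicate 1), and the lower included Pdgfra, the growth factor receptor that marks these cells, from 53.6 ± 5.72 to 41.4 ± 3.75 CPM (log2 fold change -0.37, SE 0.09, edgeR adjusted p = 0.0123, not called with all 12 libraries in the model).

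Exon reads of cholesterol synthesis genes were lower at many steps of the pathway. Of 22 genes 10 were lower and 0 higher, with a median of -0.20, and 15 were lower with the GC correction. In reads outside exons 1 of 19 tested genes was called, which was higher, and the median was 0.24. Hmgcs1, an early enzyme of the pathway, was at 298, 280.4, 264 and 289.5 CPM in the uninjured and 229.5, 199, 219.6 and 188 CPM in the injured libraries (log2 fold change -0.44, SE 0.07, edgeR adjusted p = 0.00371). Every injured library was below every uninjured one. Idi1, further down the pathway, fell from 60.4 ± 3.14 to 39.3 ± 3.71 CPM, which alone passed 1.2-fold and overlaps another gene. Dhcr7, at the end of the pathway, was at -0.12 and not called. Srebf1, a transcription factor which favours fatty acid synthesis and was chosen after its values were seen, rose from 59.6 ± 2.01 to 85.6 ± 4.09 CPM (log2 fold change 0.52, SE 0.06, edgeR adjusted p = 5.76e-04).

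All 13 protein genes of the mitochondrial genome were lower, 7 of them past 1.2-fold, with a median of -1.04, and 12 with the GC correction. mt-Nd5, a subunit of complex I, was at 5819, 4120.4, 4120.0 and 3729 CPM in the uninjured and 2598, 1834, 1784 and 1693 CPM in the injured libraries (log2 fold change -1.17, SE 0.16, edgeR adjusted p = 0.00143). mt-Nd2 was at 5822, 4900.1, 4542 and 4303 CPM in the uninjured and 3006, 2014, 1648 and 742 CPM in the injured libraries (log2 fold change -1.401, SE 0.30, edgeR adjusted p = 0.00884). Levels differed among injured libraries, and injured replicate 4 was the lowest for mt-Nd2. mt-Atp8 had the widest spread, at 2626, 1309, 1131 and 1036 CPM in the uninjured and 701, 320.3, 216 and 13.1 CPM in the injured libraries, and lost its call without any 1 of 5 libraries (edgeR adjusted p = 0.10002 without injured replicate 3). Of 23 tested nuclear genes of the respiratory chain 4 were higher and 1 lower, beside 15.5% and 17.3% of all genes, with a median of 0.12. The 4 were 2 without uninjured replicate 1, 1 without uninjured replicate 4 or injured replicate 3 or 4, and 0 without injured replicate 2, and the lower was 0 without any 1 uninjured replicate or injured replicate 2 or 3. With the GC correction 2 were higher and 2 lower. Ribosomal protein genes were higher in 10 of 20, and 3, 5 and 1 without uninjured replicates 1, 2 and 4 and 1 without injured replicate 2, 3 or 4, and 6 with the GC correction. The share of mitochondrial reads differed between groups by the values given above, and what set it was not tested.

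Of 14 tested cell cycle genes, 0 were called higher at day 20 and 3 lower (1 without uninjured replicate 4 or injured replicate 2, with the GC correction or by DESeq2). Mki67, a marker of dividing cells, fell from 2.51 ± 0.414 to 1.38 ± 0.224 CPM (log2 fold change -0.85, SE 0.18, edgeR adjusted p = 0.00875), and it overlaps another gene. Pcna, the sliding clamp of replication, was not called, at -0.11.

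By size of fold among genes above 1 CPM, further rises were in Gata3, a transcription factor, at 0.202, 0.0655, 0 and 0.2702 CPM in the uninjured and 1.01, 1.53, 0.954 and 0.7099 CPM in the injured libraries (log2 fold change 2.900, SE 0.51, edgeR adjusted p = 0.00434), and Comp, a matrix protein of cartilage and tendon, at 0.269, 0.327, 0.267 and 0.5403 CPM in the uninjured and 1.38, 1.53, 1.31 and 1.12 CPM in the injured libraries (log2 fold change 1.91, SE 0.27, edgeR adjusted p = 0.00192). Fam205a2 and Fam205a3 were between 0 and 0.131 CPM in uninjured and between 0.943 and 8.05 CPM in injured mice, with injured replicate 1 the lowest and replicate 4 the highest, and 0% of their reads were unique. Capn11, a calpain protease, had the largest fall, at 2.42, 1.899, 2.47 and 1.89 CPM in the uninjured and 0.189, 0.368, 0.417 and 0.532 CPM in the injured libraries (log2 fold change -2.49, SE 0.26, edgeR adjusted p = 3.13e-04). Tshr, the thyrotropin receptor, was at 1.35, 1.31, 1.07 and 1.01 CPM in the uninjured and 0.503, 0.0614, 0.417 and 0.177 CPM in the injured libraries (log2 fold change -2.01, SE 0.38, edgeR adjusted p = 0.00582). Both had groups that did not overlap, at low levels. 1700047I17Rik2 fell unevenly, at 28.7, 32.8, 39.6 and 31.001 CPM in the uninjured and 15.7, 12.6, 0.119 and 0.532 CPM in the injured libraries, with 2 injured libraries near 0 and 0% of reads unique. Its call was lost with DESeq2 and without uninjured replicate 4 or injured replicate 4, at most to edgeR adjusted p = 0.0616.

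The lower genes of smallest p outside the lists were also chosen after their values were seen. Ide, the insulin-degrading enzyme, was at 76.1, 66.9, 65.7 and 68.7 CPM in the uninjured and 45.2, 44.7, 46.3 and 42.2 CPM in the injured libraries (log2 fold change -0.64, SE 0.07, edgeR adjusted p = 3.13e-04). Htr2a, a serotonin receptor, was at 37.3, 28.1, 30.02 and 31.6 CPM in the uninjured and 19.8, 15.8, 17.7 and 13.5 CPM in the injured libraries (log2 fold change -0.93, SE 0.12, edgeR adjusted p = 0.00125). Peg10, an imprinted gene derived from a retrotransposon, fell from 25.8 ± 3.22 to 13.5 ± 2.02 CPM, and Rgs4, a regulator of G protein signalling, from 665 ± 18.2 to 493 ± 17.4 CPM (log2 fold change -0.43, SE 0.05, edgeR adjusted p = 8.87e-04). The groups did not overlap in any of the 4.

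Reads of a gene that lie outside its exons, in the column of intron reads, gave a second and shallower readout, with 940907 to 1179373 reads per library. The single-exon mitochondrial genes also hold such reads, so the column is not introns alone. Of 10998 genes tested 139 were higher (1.26%) and 204 lower (1.85%), and 240 of these 343 were called in the same direction by exon reads and 1, Camk2n1, in the opposite one. The counts were 14 to 245 higher and 30 to 391 lower when 1 library was left out. Each of the 8 libraries moved the first count by over 1.5 times, and each but injured replicate 2 the second. C4b rose here too (log2 fold change 1.36, edgeR adjusted p = 8.57e-05), as did Gfap (0.88, 0.00104), Arc (0.68, 0.0379) and Prkcd (0.78, 0.0113). Tshr fell by more than in exons (log2 fold change -3.51, edgeR adjusted p = 1.71e-05), from 87 reads over the uninjured to 8 over the injured libraries. Slco1a4 (-0.62, 0.0232), Enpp2 (-0.51, 0.0159) and Ide (-0.67, 0.0129) fell in both. A few genes were called outside exons and not in exons. Slc2a1 was higher by 0.84 (edgeR adjusted p = 0.0248) against 0.02 in exons, Abca1, a cholesterol exporter, by 0.91 (0.0405) against -0.10, and Cd44 was at -0.65 (0.0247) against 0.32. The difference between the 2 readouts was not tested.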

How the data were processed

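Exon reads per gene were compared between the brains of 4 injured and 4 uninjured mice, 1 library per mouse, so p-values measure the spread between these mice. Of the authors' steps, CASAVA 1.8.2, Trimmomatic 0.39, FastQC 0.11.8 and the build GRCm38 are known, per the submitters' processing notes. Which aligner and counter were used, and whether strand was read, is not given in the sources used here. The deposited files give, per the file headers, counts of total exon reads, unique exon reads and intron reads per gene, and TPM. The TPM values made by the authors were used only as a per-length record and enter no test. GENCODE M21 held each of the 25749 genes at the same coordinates and gave GC content. Length and overlaps between genes came from the exon lengths and gene regions of the deposited files.

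Total exon read counts were filtered with filterByExpr, scaled by TMM and tested with the quasi-likelihood test of edgeR 4.0.16 in R 4.3.3 (6 residual degrees of freedom, Benjamini-Hochberg adjustment over all tested genes, threshold 0.05), and against a fold of 1.2 with glmTreat. Intron reads were tested in the same way. The trend of each library with GC content and length was estimated with mgcv 1.9.3 and removed as an offset (the GC correction). DESeq2 1.42.0, limma 3.58.1 (voom), other scalings and filters, unique reads, all 12 libraries in 1 model, a replicate block and leaving out each library were alternatives. The test was also run on simulated data, in which genes varied independently and no library had a trend with GC content or length. That simulation cannot show how such a trend affects the calls. No pair of libraries held identical values, and every pair within a group differed by more than counting noise.

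The gene lists and the genes described were chosen with earlier results of these data known. Genes were named by a rule: the first gene of each list, up to 3 called members of each list with the smallest p, and the 8 genes with the largest rise and the 8 with the largest fall that had at least 1 CPM in the higher group and no overlap between groups. Further list members, in particular those that did not pass, were picked after their values were seen, as were genes marked so in the text. The exon read totals given with the results set the counting error of each value. Some listed genes are not reported here.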

Additional observations from a re-analysis of the deposited data

Results flagged for a closer look

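For each gene named above except Cd46, and each group of 4 libraries, the gap between the most extreme library and its nearest neighbour was taken. It was divided by the range of the group. In 27 of 404 such groups this share was above the critical value of Dixon's test, which chance exceeds in about 1 in 20 groups. Among immune genes, uninjured replicate 1 was low for Isg15 (0.842), replicate 2 for Fcgr2b (0.943) and replicate 4 for Ddx58 (0.835). Uninjured replicate 3 was high for Bst2 (0.848) and replicate 2 for Lgals3bp (0.877). Injured replicate 4 was high for H2-Q6 (0.832), and injured replicate 1 was low for Stat2 (0.906) and high for Itgav (0.856).

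In astrocyte, matrix and vessel genes, injured replicate 1 was low for Vim (0.909) and high for Aqp4 (0.896) and replicate 2 low for Tnc (0.901). Injured replicate 1 was high for Tgfbr1 (0.917) and replicate 4 was low for Rgs5 (0.844), while uninjured replicate 1 was low for Col3a1 (0.836) and Hba-a1 (0.866). In neuronal and regional genes, uninjured replicate 4 was low for Egr1 (0.920) and replicate 3 for Snap25 (0.918), although their 4 values lay within a narrow range. Injured replicate 1 was low for Gbx2 (0.962), replicate 2 for Kl (0.851) and replicate 4 for Idi1 (0.895). For mt-Nd5 injured replicate 1 was high (0.845), at 2598 CPM beside 1693 to 1834 CPM in the others. The remaining cases were genes of a few reads, in which 1 library differed by 1 to 3 reads, namely Ly6c2 (1), Cd3e (1), Cd8a (0.983), Tnf (0.969), Il6 (1) and Fam205a2 (1). What set these libraries apart was not tested.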

How the results depend on the processing

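The number of genes called depended on the processing. For exon reads, where 2251 genes were higher and 2511 lower, scaling to library size alone gave 3982 and 1457, the GC correction 1138 and 1659, the test against a fold of 1.2 190 and 78, and all 12 libraries in the model 1764 and 1632. Leaving out 1 library gave 1220 to 2444 higher and 1373 to 2977 lower. Both counts fell by over 1.5 times without uninjured replicate 4 (1265 and 1444), injured replicate 2 (1320 and 1508), injured replicate 3 (1404 and 1627) or injured replicate 4 (1220 and 1373). Both counts rose without uninjured replicate 3 (2442 and 2812) or injured replicate 1 (2444 and 2977). Fewer libraries were fitted in all of these, and what caused any of the shifts was not tested. DESeq2 size factors, DESeq2's Wald test, limma voom, both other filters, unique reads and scaling without mitochondrial reads, which was chosen after seeing the data, stayed within 1.5 times. For reads outside exons, where 139 were higher and 204 lower, library size alone gave 74 and 103, and leaving out 1 library gave 14 to 245 and 30 to 391.

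The replicate numbers were given as a block in 1 alternative. The deviations of same-numbered libraries from their group means correlated at 0.45, 0.18, -0.04 and 0.02 for numbers 1 to 4. These correlations cannot decide whether same-numbered libraries shared more than a number. With the replicate block 3053 genes were higher and 3280 lower in exon reads and 329 and 473 outside exons, and with the block and the GC correction 1606 and 2175 in exon reads. Not every library correlated best with its own number, since uninjured replicate 3 and injured replicate 2 correlated at 0.39.

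Apart from Cd46, 187 tested genes were named in the text and 159 of them were called. Of 3915 comparisons of a gene with an alternative, 165 lost a call and kept the direction. The test against a fold of 1.2 took 57 of these, and the GC correction 14, among them H2-DMa, Gbp7, Cd14, Hmox1 and Fap. Calls of Tlr3, Bdnf and Olig1 that were lost with a turn in direction are counted with the turns instead. Of 78 list counts 74 moved by over 1.5 times in at least 1 alternative. Direction turned in 36 of the 3915. With the GC correction, with or without the replicate block, Igf1 turned to 0.32, Abca1 to 0.10, Aqp4 to 0.19, Gja1 to 0.13, Slc2a1 to -0.12, Egr1 to -0.18, Bdnf to 0.0063 (0.0070 with the block), Mag to -0.15, Cnp to -0.20, Olig1 to -0.020 (-0.0195 with the block) and Tlr3 to 0.0041 (0.0050 with the block), all as log2 fold changes. The remaining turns were of genes that were not called, at values near 0. Scaling to library size alone put Mertk at 0.0031. Egr1 was at -0.0041 with DESeq2 size factors or DESeq2's Wald test and at -0.0030 with no filter. With 1 library left out Abca1 ranged from -0.27 to 0.067, Slc2a1 from -0.017 to 0.048, Egr1 from -0.019 to 0.015, Mbp from -0.014 to 0.050 and Cnp from -0.030 to 0.042.

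Genes at a few reads per library, such as the classical monocyte, neutrophil and lymphocyte markers and most cytokines, were limited by depth, and a change in them was not detectable here.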

Other observations

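Of 12 tested leukocyte integrins and ligands, the adhesion molecules by which white cells leave the blood, 4 were higher. Besides the integrin chains described above, Icam1, a ligand of LFA1 on endothelium and myeloid cells, was at 2.35, 2.62, 3.08 and 2.63 CPM in the uninjured and 4.02, 4.604, 4.06 and 4.14 CPM in the injured libraries (log2 fold change 0.65, SE 0.13, edgeR adjusted p = 0.00644). The groups of Icam1 did not overlap. The 2 lower members, Itgb1 and Jam2, were not called with the GC correction or without uninjured replicate 4 or injured replicate 2 or 4, and 1 was called without uninjured replicate 1 or injured replicate 3.

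In the list of TGF-beta ligands, binding proteins, receptors and Smads 4 of 18 were higher (2 with the GC correction) and 3 lower. Over all genes these shares were 15.5% and 17.3%. The median log2 fold change of the list was -0.01. Ltbp3, which holds latent TGF-beta in the matrix and overlaps another gene, rose from 28.2 ± 0.867 to 41.997 ± 4.09 CPM (log2 fold change 0.58, SE 0.08, edgeR adjusted p = 0.001504) and alone passed 1.2-fold. Tgfbr1, the type I receptor, fell from 31.8 ± 5.24 to 22.8 ± 1.72 CPM (log2 fold change -0.48, SE 0.11, edgeR adjusted p = 0.0107), and its log2 fold change was -0.10 with the GC correction (edgeR adjusted p = 0.286). The ligand Tgfb2 fell from 18.8 ± 1.26 to 14.6 ± 1.201 CPM (log2 fold change -0.36, SE 0.08, edgeR adjusted p = 0.0108).

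Of 13 interneuron markers 2 were higher (1 without uninjured replicate 1 or injured replicate 4) and 3 lower, beside 15.5% and 17.3% of all genes. With the GC correction 6 were lower, beside 11.4% of all genes. Calb2, calretinin, was at 13.6, 15.98, 20.3 and 15.1 CPM in the uninjured and 26.1, 31.4, 30.1 and 26.3 CPM in the injured libraries (log2 fold change 0.81, SE 0.12, edgeR adjusted p = 0.00203). Its groups did not overlap. Gad2 and Gad1, the enzymes that make GABA, fell from 183 ± 21.1 to 135 ± 13.3 CPM and from 417 ± 13.7 to 358 ± 17.5 CPM, and Gad1 was not called after scaling to library size alone.

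Among 17 tested genes of endoplasmic reticulum and heat stress 8 were higher and 1 lower. The 8 were 4 with the GC correction, 5 without uninjured replicate 1 or 2 or injured replicate 3, 4 without uninjured replicate 4 or injured replicate 2, and 3 without injured replicate 4. The lower was 4 with the GC correction and 0 without uninjured replicate 1, 2 or 4 or injured replicate 2 or 4. Atf3, a stress factor that injured neurons also switch on, was at 1.14, 1.24, 1.003 and 0.878 CPM in the uninjured and 1.57, 2.15, 1.91 and 2.43 CPM in the injured libraries (log2 fold change 0.91, SE 0.20, edgeR adjusted p = 0.00919). Every injured library was above every uninjured one. Hspa1b, a heat shock protein with a near-identical copy, rose from 7.59 ± 0.616 to 12.6 ± 2.33 CPM (log2 fold change 0.74, SE 0.13, edgeR adjusted p = 0.00489), with 49.9% of its reads unique. Nefh, the heavy neurofilament chain, rose from 79.4 ± 2.26 to 102 ± 4.95 CPM in a list of 16 axon growth genes with 4 higher (1 with the GC correction) and 2 lower (1 without uninjured replicate 1 or 4 or injured replicate 2, 3 or 4), and its log2 fold change was 0.14 with the GC correction (edgeR adjusted p = 0.0589).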
